A study of Anopheles gambiae with 36 samples.

Results

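The core circadian clock genes were followed in the ear of the malaria mosquito *Anopheles gambiae*. The members were all listed transcripts of 6 genes, namely period (AGAP001856), timeless (AGAP008288), CRY2 (AGAP004261), Clock (AGAP005711), cycle (AGAP005655) and CRY1 (AGAP001958). They came to 9 transcripts among the 15863 transcripts of 13832 genes in the table. RNA had been sequenced from the second antennal segment, which holds the Johnston's organ (JO), the auditory organ of the mosquito, after the flagellum had been cut off. Adult males and females of the Kisumu strain lived in a cycle of 12 h light and 12 h dark at 28 °C, and were collected at 6 zeitgeber times (ZT, hours from lights on), ZT0, ZT4, ZT8, ZT12, ZT16 and ZT20. Light was ramped down from ZT12, the swarming time in the laboratory, and ramped up from ZT0. No group carried a mutation or was treated, and the groups differed by sex and time of collection alone, with 3 libraries for each of the 12 groups. JOs were collected from 35 males and 35 females at each time, in 3 repeats of the procedure. The sexes were reared in different cages, so that sex and cage cannot be told apart.

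In insects the clock is a feedback loop of transcription. The proteins CLOCK and CYCLE bind DNA together and activate period and timeless, and the PERIOD and TIMELESS proteins later return to the nucleus and repress that activation. Mosquitoes, unlike the fruit fly *Drosophila*, carry 2 cryptochromes. CRY1 is a light receptor that resets the loop through TIMELESS, and CRY2, the vertebrate-like one, acts as a repressor. Clocks of this kind run in many peripheral tissues as well as in the brain.

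One of the 36 libraries, male ZT12 replicate 3, was left out, so that male ZT12 had 2 libraries and 35 remained, 17 from males and 18 from females. Their total estimated counts ran from 9341559 to 17815875 in females and from 11074632 to 18255021 in males. The opsins, photoreceptor proteins of the eye, stood apart between the sexes. The study reported them as highly expressed in the JO, and cited auditory roles of rhodopsins in *Drosophila*. The 11 transcripts of 9 opsin genes took 9.37 to 45.63% of the counts of a female library (median 27.03%) and 1.39 to 13.69% of those of a male library (median 4.58%), and all 11 had the higher median in females. None of the other clock genes or of the markers of auditory neurons is paired with an identifier in the sources used here, so they were not analysed here. The label of the tissue could be set only against genes known from its neighbours, the eye and the flagellum. The summed level of Orco and IR25a, co-receptors of the chemosensory neurons of the flagellum, was 35.5 to 180.6 normalised counts in males and 22.6 to 409.7 in females, with Orco at 0 in some libraries of each sex. It was highest in females at ZT4 (206.8 to 409.7), and its part in the time courses was not tested. The study reported Orco as expressed in the female JO, with a level that cycled over the day. Expression in the JO and RNA carried over from the flagellum cannot be told apart here. A normalised count is an estimated count divided by the size factor of its library. Because whole segments were sequenced, fewer cells of a type and less RNA per cell cannot be told apart.

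The repressor side of the loop, period, timeless and CRY2, was low by day and high late in the night in both sexes. In males the period transcript (AGAP001856-RA) stood at 602.3, 708.0 and 679.4 normalised counts at ZT4, at 765.0, 749.6 and 676.3 at ZT8, and at 1490 and 1796 at ZT12. It then stood at 1930, 2522 and 3584 at ZT16, at 2807, 2691 and 3060 at ZT20, and at 1807, 2583 and 2633 at ZT0. All male libraries of ZT20 were above all of ZT4 and ZT8, while ZT20, ZT16 and ZT0 overlapped as neighbours in that order, and so did ZT8 and ZT4. The mean at ZT20, 2853 ± 188.4 (SD, n = 3), was 4.3-fold that at ZT4, 663.2 ± 54.7 (SD, n = 3).

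In females period was also lowest by day, and the difference in time course between the sexes did not pass its tests (adjusted p = 0.644 for the interaction of sex and time point and 0.723 for that with a 24 h curve, edgeR). It was 423.8, 230.4 and 396.1 normalised counts at ZT4, 215.4, 173.7 and 109.2 at ZT8, and 424.5, 638.8 and 743.5 at ZT12. It reached 1519, 1673 and 1266 at ZT16 and 1937, 1725 and 2386 at ZT20, and was 621.5, 1257 and 872.7 at ZT0. Of the 5 pairs of neighbours in the order of means, 4 were separated without overlap and only ZT0 and ZT12 overlapped. For every gene and in both sexes, such orders and extreme groups were set by these same libraries. Their separation is a description and not a test. The mean at ZT20, 2016 ± 337.3 (SD, n = 3), was 12.1-fold that at ZT8, 166.1 ± 53.5 (SD, n = 3).

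**Figure D1:**
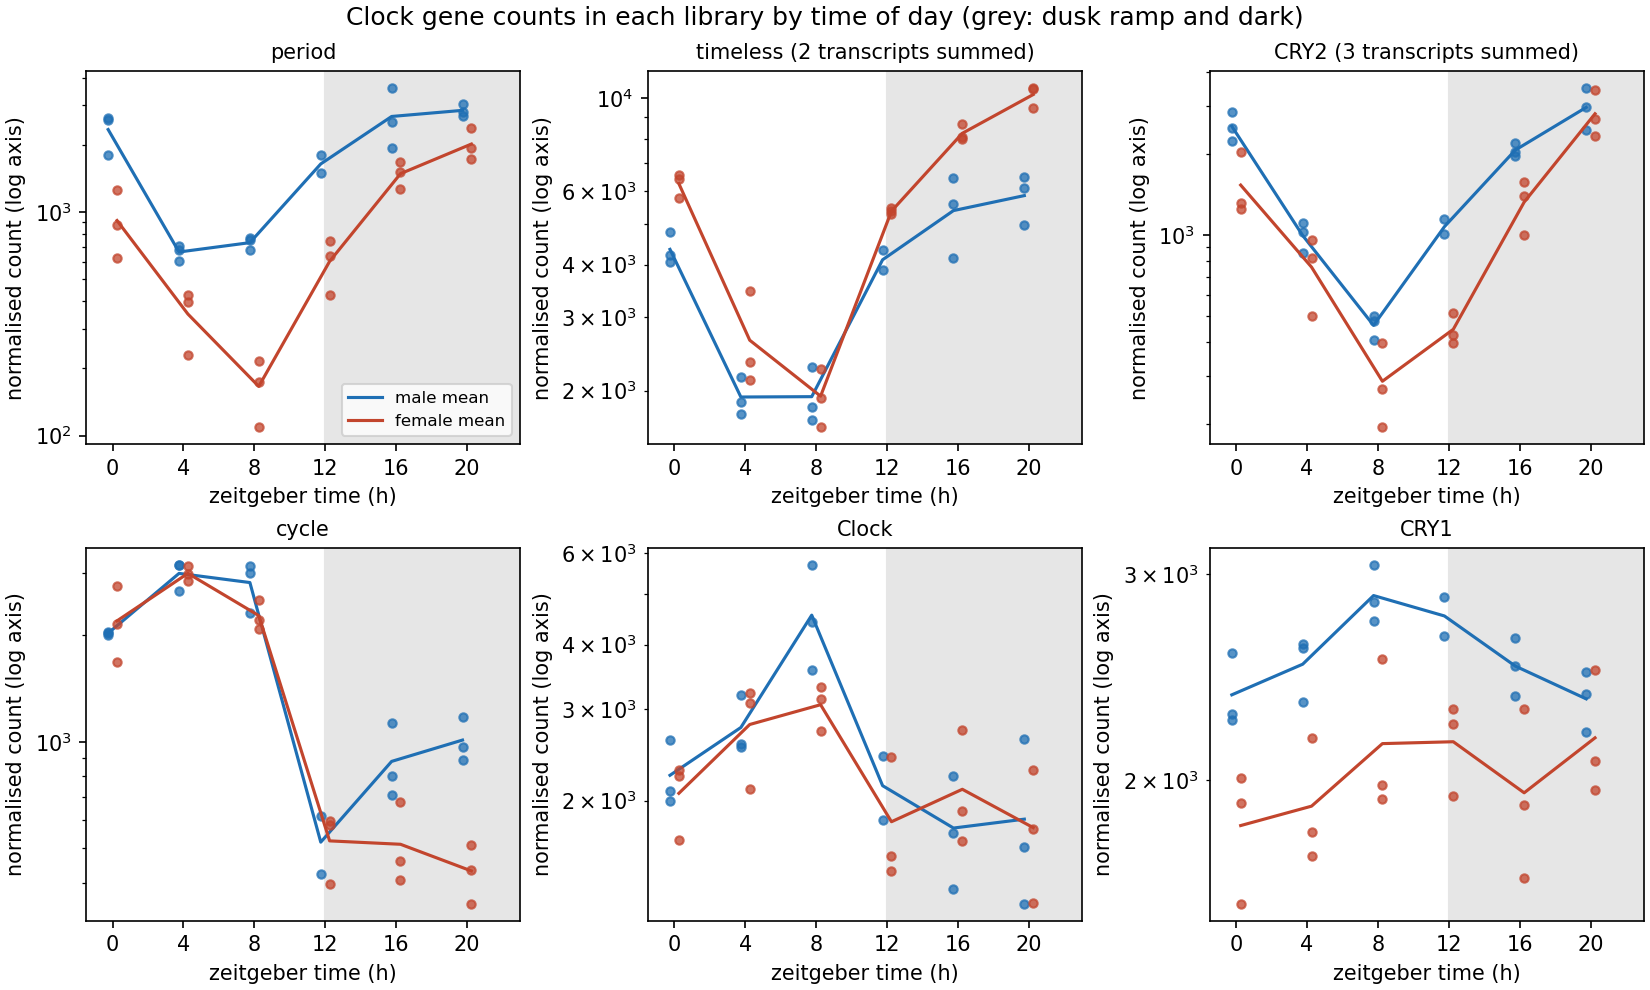
Normalised counts of the 6 clock genes (vertical axes, log scale) against zeitgeber time in hours (horizontal axes), with a point per library, lines through the group means, males in blue and females in red; timeless and CRY2 are sums of their transcripts. Period, timeless and CRY2 reached their highest means at ZT20 in both sexes, cycle at ZT4 and Clock at ZT8, and CRY1 spanned only 1.23-fold in males and 1.19-fold in females.

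The gene timeless, whose protein partners PERIOD, has 2 listed transcripts, and reads that fit both had been divided between them. In females the sum was 3464, 2336 and 2117 normalised counts at ZT4, 2258, 1635 and 1924 at ZT8, and 5376, 5451 and 5286 at ZT12. It was 8667, 8068 and 8003 at ZT16, 9500, 10570 and 10550 at ZT20, and 5784, 6416 and 6552 at ZT0. Every step in the order of means except that between ZT4 and ZT8 was free of overlap, and ZT20 stood 5.26-fold above ZT8. In males the sum lay between 1697 and 2280 at ZT4 and ZT8 and between 4973 and 6476 at ZT20, a 3.03-fold range of means from ZT4 to ZT20.

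CRY2, the repressor cryptochrome, has 3 listed transcripts and was also summed. In males the sum was 407.1, 502.1 and 478.2 normalised counts at ZT8, 1004 and 1142 at ZT12, and 1960, 2190 and 2037 at ZT16. It was 2438, 2970 and 3496 at ZT20, 2499, 2221 and 2859 at ZT0, and 1023, 855.9 and 1107 at ZT4. The ZT8 libraries were below all others, and ZT20 was 6.42-fold above ZT8. In females the sum was 194.1, 399.2 and 267.9 at ZT8 and still 427.5, 515.7 and 398.0 at ZT12, against 2319, 3437 and 2678 at ZT20, which was 9.79-fold above ZT8. Female ZT8 and ZT12 overlapped narrowly (399.2 at ZT8 against 398.0 at ZT12), whereas in males, with 2 libraries at ZT12, these time points did not. The CRY2 sum did not pass the interaction of sex and time point.

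Of the activators of the loop, cycle was high by day and low by night in both sexes. In males cycle (AGAP005655-RA) stood at 2030, 1996 and 2044 normalised counts at ZT0, 3141, 2656 and 3151 at ZT4, and 3125, 2311 and 2996 at ZT8. It dropped to 618.0 and 423.8 at ZT12, and was 798.9, 709.2 and 1132 at ZT16 and 1174, 969.0 and 889.3 at ZT20. The male ZT12 libraries were the lowest of all, and ZT4 was 5.73-fold above them. In females cycle was 1680, 2150 and 2745 at ZT0, 2977, 3138 and 2835 at ZT4, and 2079, 2515 and 2211 at ZT8. It was 597.9, 396.9 and 581.0 at ZT12, 675.4, 459.8 and 406.2 at ZT16, and 435.2, 512.3 and 348.9 at ZT20. The libraries of the last 3 times overlapped one another and lay below all daytime libraries, and ZT4 was 6.9-fold above ZT20.

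Clock (AGAP005711-RA), the partner of cycle, had a smaller range. It was highest at ZT8 in both sexes, at 4412, 3566 and 5697 normalised counts in males and 3310, 2729 and 3147 in females. Its lowest mean was at ZT16 in males, with 1734, 1350 and 2227, and at ZT20 in females, with 1765, 1269 and 2287. The highest and lowest groups did not overlap in either sex, and differed 2.57-fold in males and 1.73-fold in females. As these groups were picked by their means, the lack of overlap is no test of a daily change. In females Clock did not pass the test of time given below (adjusted p = 0.485, edgeR). CRY1 (AGAP001958-RA), the light receptor, ranged from 2198 to 3057 normalised counts over all male libraries and from 1567 to 2539 over all female libraries.

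Whether the time points differed was tested within each sex with edgeR's quasi-likelihood F-test, with Benjamini-Hochberg adjusted p-values over all transcripts. In males 5 of the 9 transcripts passed, where 1.67% of all tested transcripts did. They were cycle (adjusted p = 4.16e-05), period (7.74e-05), CRY2 AGAP004261-RB (9.31e-05), timeless AGAP008288-RB (0.0381) and Clock (0.0437). In females 2 of the 9 passed against 1.23% of all, cycle (adjusted p = 3.97e-05) and period (2.53e-04). Timeless AGAP008288-RB and Clock lost the male call without any 1 of the replicate numbers (adjusted p 0.15 to 0.527 and 0.317 to 0.49), cycle without replicate 1 (0.0601) and period without replicate 2 (0.0684). In females period lost it without replicate 3 (0.0661), and timeless AGAP008288-RB gained a call without replicate 1 (0.036). In the fits on the 17 male and 18 female libraries, the adjusted p for Clock in females was 0.485, and that for CRY1 was 0.675 in males and 0.998 in females.

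With the isoforms of each gene summed, 5 of 6 genes changed over the day in males, where 2.24% of all genes did, and 4 of 6 in females, where 1.88% did. In the same edgeR test on sums, timeless had an adjusted p of 4.48e-05 in males and 5.27e-05 in females, and CRY2 1.24e-06 and 1.12e-04. CRY1 was the gene that did not pass in males, and Clock (adjusted p = 0.417) and CRY1 (0.971) did not pass in females. Clock in males lost its call without any 1 of the 3 replicate numbers (adjusted p 0.175 to 0.341 in the summed fit), and CRY2 in females without replicate 1 (0.0524).

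A curve with a period of 24 h was then fitted to log2(normalised count + 1), and its 2 terms were tested with edgeR across all transcripts. In males 6 of 9 transcripts passed against 2.43% of all (3 without any 1 of the replicate numbers), and in females 5 of 9 against 3.45% (2 without replicate 2 and 2 without replicate 3). With isoforms summed 5 of 6 genes passed in males (3.16% of all genes) and 4 of 6 in females (4.73%). The genes were those called for time in each sex. Cycle in males (adjusted p = 5.58e-04 in the summed fit) did not pass without replicate 1 (0.0546), nor did Clock (0.0139) without any 1 of the replicate numbers (0.0644 to 0.119).

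The fitted peaks fell in 2 parts of the day. Timeless peaked at ZT 18.36 ± 0.40 h (SE, n = 17) in males and 18.62 ± 0.29 h (SE, n = 18) in females. Period peaked at 18.66 ± 0.42 h and 19.00 ± 0.32 h, and CRY2 at 20.25 ± 0.28 h and 20.65 ± 0.32 h, in males and females respectively. The peaks of cycle were at 3.79 ± 0.57 h and 4.24 ± 0.36 h and those of Clock at 6.80 ± 0.87 h and 5.98 ± 1.25 h. In both sexes CRY2 thus had the latest fitted peak of the repressors. With samples 4 h apart over a single cycle, these errors cover the scatter around the curve and not its shape.

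**Figure D2:**
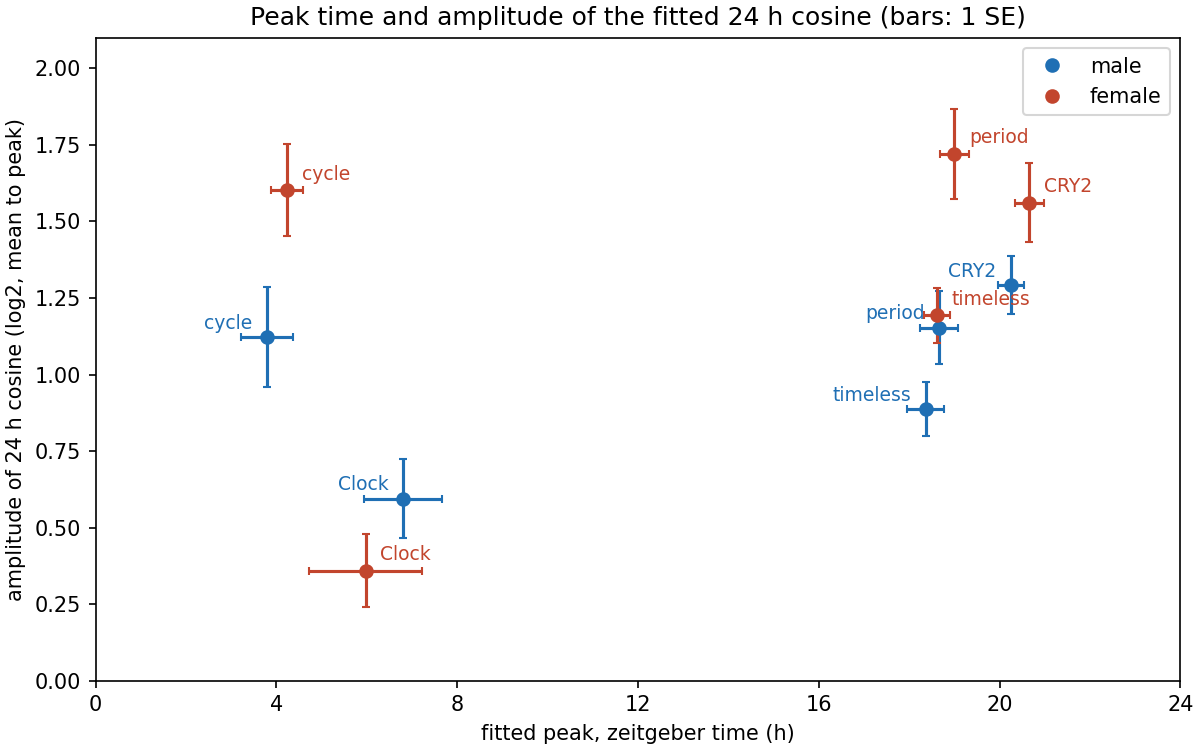
Amplitude of the fitted 24 h curve (vertical axis, log2 units from mean to peak) against its peak in zeitgeber time (horizontal axis, h) for 5 clock genes, males in blue and females in red, with bars of 1 SE. The peaks of the sexes lie within 0.82 h of each other for every gene shown, with cycle and Clock by day and period, timeless and CRY2 at night.

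JTK_CYCLE, a rank test for rhythms with periods of 8 to 24 h, was applied to transcripts past the time test. The 5 male transcripts that had passed were all called rhythmic, and so were the 2 female ones. Most transcripts past the time test were called, 163 of 206 in males and 140 of 151 in females. The calls of the clock transcripts are near that share and add little to the time test. Over all transcripts tested for time, 1.32% were called in males and 1.14% in females. The best period was 24 h for period, CRY2 AGAP004261-RB and timeless AGAP008288-RB in males and for both female transcripts, and 20 h for cycle and Clock in males. Samples 4 h apart over a single cycle cannot tell 20 h from 24 h. With 24 h alone allowed, JTK_CYCLE also called cycle (adjusted p = 0.00182) and Clock (0.0194) in males. Among the transcripts called with all periods, the highest adjusted p was that of Clock in males (0.0486). The study's own first step was DESeq2's likelihood ratio test. With it, JTK_CYCLE did not call Clock in males (adjusted p = 0.064) and called CRY2 AGAP004261-RC (0.027). Without replicate 3 neither female transcript was called. In males CRY2 AGAP004261-RB was the transcript called without replicate 1 and without replicate 2, and AGAP004261-RB, cycle and period were called without replicate 3.

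With isoforms summed, 4 of 6 genes were higher in males and 1 in females, at a background of 36% of all genes higher in males and 35.7% higher in females. Of these 5 calls, those of cycle and timeless were lost when the opsin level was a covariate (adjusted p = 0.779 and 0.0683, edgeR). Over all genes the calls for sex fell from 7663 of 10680 to 3202 of 10899 with that covariate. Period showed the widest gap. All male libraries were above all female ones at 6 of 6 time points, and the levels ran from 602.3 to 3584 normalised counts in males (median 1807) and from 109.2 to 2386 in females (median 691.2). The model held terms for time and for sex, and its log2 fold change of males over females was 1.22 ± 0.14 (SE, edgeR, adjusted p = 6.91e-09). CRY1 was higher in males by 0.38 ± 0.06 (SE, adjusted p = 6.58e-07), with all male libraries above all female ones at 5 of 6 time points, ZT20 being the exception. Without replicate 1 the CRY1 value was 0.23 (adjusted p = 0.0128). How many of all genes separate the sexes at as many time points was not counted. The numbers of time points without overlap, here and for the genes below, are thus descriptions only.

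Timeless was the gene with the opposite sign. Its sum was higher in females, and the males-over-females value was -0.43 ± 0.08 (log2, SE, edgeR, adjusted p = 1.67e-05). All female libraries were above all male ones at 4 time points, ZT0, ZT12, ZT16 and ZT20, and overlapped with them at ZT4 and ZT8. The CRY2 sum was higher in males by 0.65 ± 0.11 (SE, adjusted p = 5.53e-06), without overlap at 4 time points. Cycle was higher in males by 0.41 ± 0.12 (SE, adjusted p = 0.00316), with no overlap at ZT16 and ZT20 alone, and without replicate 1 the adjusted p was 0.126. For Clock the value was 0.16 ± 0.11 (SE, adjusted p = 0.206).

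Over the transcripts, 5 of 9 were higher in males and 1 in females, at a background of 34.2% of all transcripts in each direction. The counts are thus read against a background in which most transcripts were called. The values also depend on scaling. When libraries were scaled by total counts alone, the median change over all transcripts moved from 0 to 0.53 on the log2 scale, 7246 transcripts were called higher in males and 2449 in females in place of 4252 and 4247, and 8 of the 9 clock transcripts were called. Clock (0.66) and timeless AGAP008288-RB (0.71) were then called higher in males, while AGAP008288-RA moved from -1.01 to -0.50 (adjusted p = 0.0427), CRY1 from 0.38 to 0.92, cycle from 0.41 to 0.95, CRY2 AGAP004261-RB from 0.95 to 1.5, AGAP004261-RC from 0.65 to 1.15 and period from 1.22 to 1.73.

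The opsin level differed between the sexes, so the model was fitted again with the log2 summed opsin level as a covariate. Values for period, CRY1 and cycle are from the fit of transcripts, and those for CRY2 and timeless from the fit with isoforms summed. Period kept a log2 fold change of 1.14 ± 0.29 (SE, edgeR, adjusted p = 0.00315), CRY1 one of 0.50 ± 0.12 (adjusted p = 0.00133), and the CRY2 sum one of 0.82 ± 0.23 (adjusted p = 0.00643). Cycle no longer passed, at 0.18 ± 0.24 (adjusted p = 0.608), nor did the timeless sum, at -0.39 ± 0.16 (adjusted p = 0.0683). The adjusted p given for cycle further above is that of the summed fit. Each of these SEs was larger than without the covariate, and calls for sex were lost over all genes as well, as given above. Whether the opsin RNA came from the eye or from the JO was not tested, and its part in the differences was not tested beyond this fit. The calls over the day of each gene sum were kept with the covariate, 5 for males and 4 for females.

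**Figure D3:**
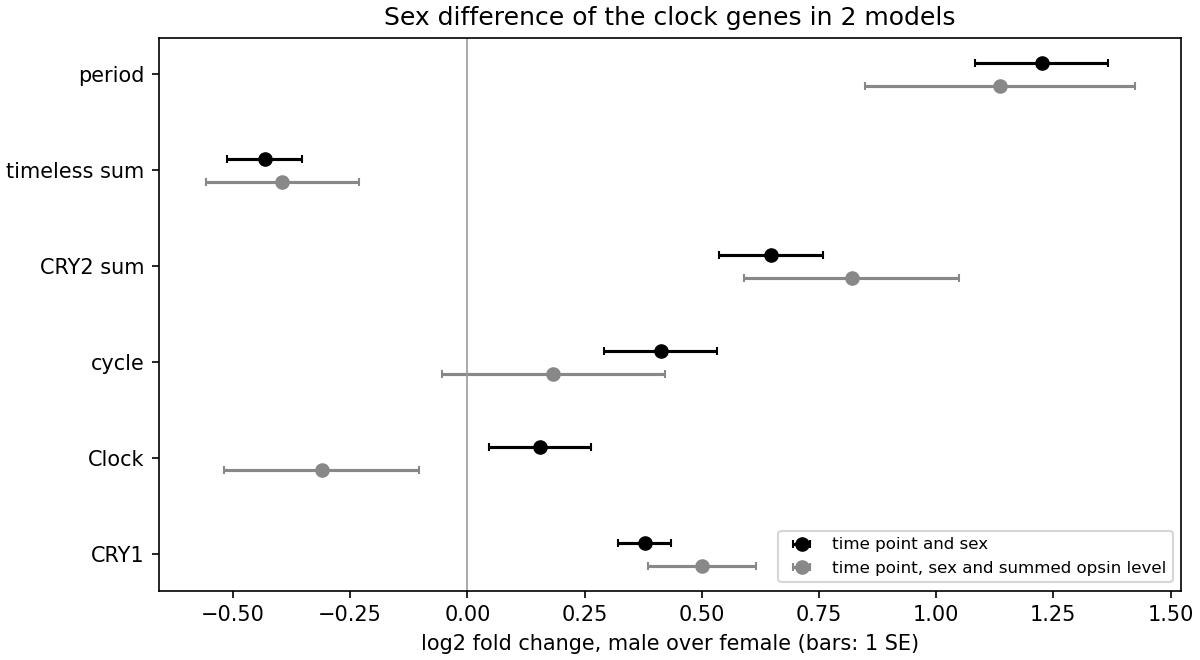
Log2 fold change of males over females (horizontal axis) for each clock gene, with bars of 1 SE, in the model of time point and sex (black) and with the log2 summed opsin level added (grey); timeless and CRY2 are sums of transcripts. Period lies at 1.22 and 1.14, and timeless is the gene below 0 in both models.

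Ratios of counts within a library do not depend on scaling. The log2 ratio of period over summed timeless counts ran from -1.84 to -0.65 in the 17 male libraries and from -4.14 to -2.14 in the 18 female libraries, so that the sexes did not overlap. Period had the largest male excess of the clock genes and timeless was the gene higher in females. The separation of their ratio follows from those differences and adds no support to them. How many other pairs of transcripts separate the sexes was not counted. The ratio of cycle over period turned over within the day. In males its log2 was 2.17 ± 0.24 (SD, n = 3) at ZT4 and -1.68 ± 0.58 (SD, n = 2) at ZT12, and in females 3.82 ± 0.53 (SD, n = 3) at ZT8 and -2.23 ± 0.51 (SD, n = 3) at ZT20. At ZT12 the male libraries were at -2.08 and -1.27, below the female libraries at -0.69 to 0.49. These ratios were described and not tested, and as counts were not divided by length, they compare libraries and not the levels of the genes.

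**Figure D4:**
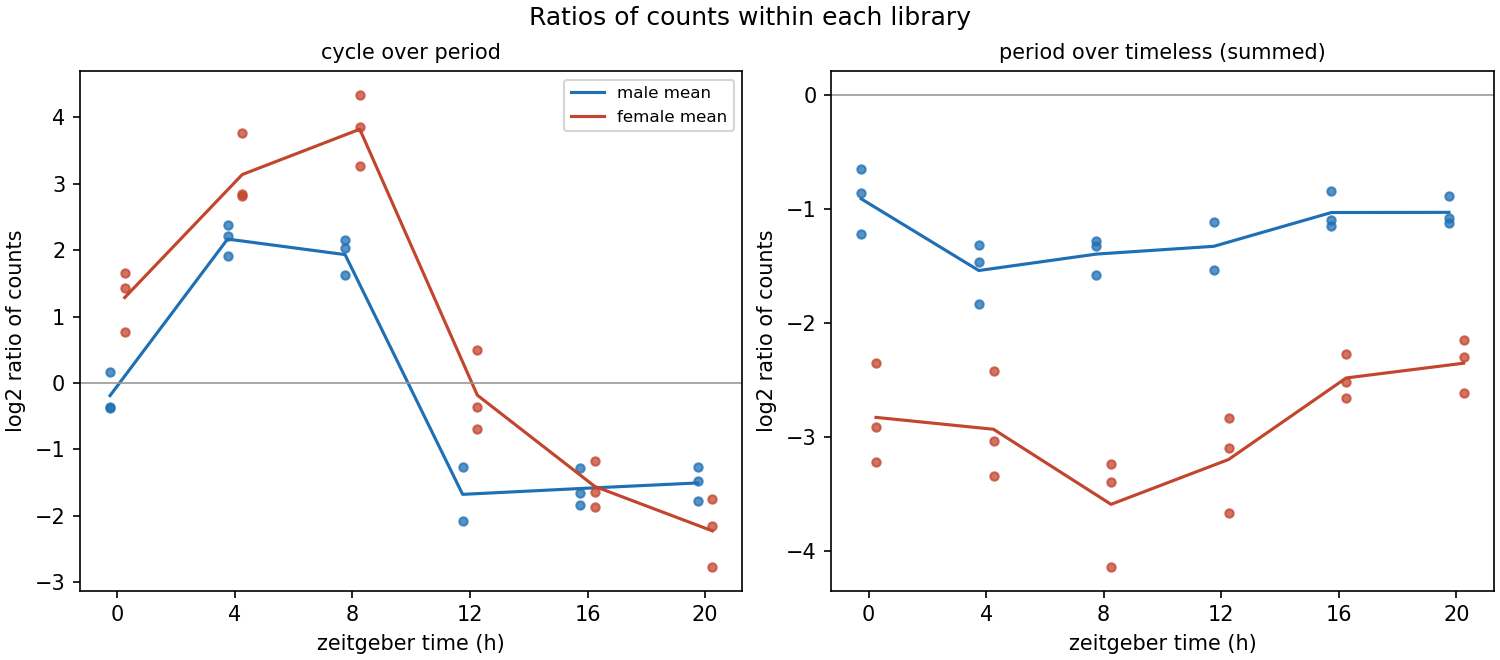
Log2 ratio of counts within each library (vertical axes) against zeitgeber time in hours (horizontal axes), for cycle over period (left) and period over summed timeless (right), with points per library and lines through the means. The right-hand ratio, of 2 genes with opposite sex differences in these same data, separates all male libraries (-1.84 to -0.65) from all female ones (-4.14 to -2.14).

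Whether the time course differed between the sexes was asked with an interaction of sex and time point. None of the 9 transcripts passed in edgeR, where 0.00775% of all did, and 2 had an unadjusted p under 0.05, cycle (6.13e-04, adjusted 0.293) and period (0.0048, adjusted 0.644). With isoforms summed 0 of 6 genes passed (0.00903% of all). The interaction of sex with the 24 h curve gave 0 of 9 transcripts (0.185% of all) and 0 of 6 genes (0.262%), with 1 transcript under an unadjusted p of 0.05, period (0.0308, adjusted 0.723). The amplitude of period was 1.15 ± 0.12 in males and 1.72 ± 0.15 in females (log2 units, SE), a difference of -0.57 ± 0.19, and that of cycle 1.12 ± 0.16 and 1.60 ± 0.15, a difference of -0.48 ± 0.22. The peaks of the sexes differed by -0.34 ± 0.53 h for period and -0.45 ± 0.67 h for cycle, males minus females.

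The isoforms of timeless and CRY2 were followed as shares of their gene's counts. AGAP008288-RA took 39.2 ± 15.7% of timeless counts over the 17 male libraries and 56.8 ± 19.6% over the 18 female libraries (SD), with a lowest, median and highest of 10.9, 36.1 and 62.9% and of 15.6, 51.9 and 96.1%. The male minus female difference of -17.6 points had an adjusted p of 0.0177 when sex was permuted within time points (two-sided permutation test, 5 isoforms tested). The share of AGAP008288-RB is the remainder and gives the same result. The difference for AGAP008288-RA was -9.59 points without replicate 1 (adjusted p = 0.155, permutation test) and -17.0 points without replicate 3 (0.118). Replicate 1 had the highest female share at all 6 time points, with 96.1% at ZT0 and 95.0% at ZT4, and the ranges of the sexes overlapped widely. In the models the transcript AGAP008288-RA was higher in females (log2, males over females, -1.01 ± 0.21, SE, edgeR, adjusted p = 7.62e-05), and AGAP008288-RB had a value of 0.14 ± 0.25 (adjusted p = 0.631).

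For CRY2, AGAP004261-RB took 80.6 ± 10.8% in males and 65.4 ± 24.8% in females (SD, two-sided permutation test, adjusted p = 0.0287), AGAP004261-RA 9.88 ± 11.9% and 23.5 ± 23.6% (adjusted p = 0.0447), and AGAP004261-RC 9.56 ± 3.82% and 11.1 ± 8.29% (adjusted p = 0.495). The split varied from library to library. AGAP004261-RA had under 10 estimated counts in 6 male and 4 female libraries, and female ZT12 replicate 1 had 0.017 normalised counts of AGAP004261-RB beside 344.7 of AGAP004261-RA. Neither CRY2 call on shares was kept without replicate 1 (adjusted p 0.12 for both), without replicate 2 (0.0532 and 0.0796) or without replicate 3 (0.243 and 0.316). The transcripts AGAP004261-RB (log2 fold change 0.95 ± 0.28, SE, edgeR, adjusted p = 0.00312) and AGAP004261-RC (0.65 ± 0.26, adjusted p = 0.0288, but 0.145 without replicate 2 and 0.306 without replicate 3) were higher in the male libraries, and AGAP004261-RA had a value of -0.72 ± 0.95 (adjusted p = 0.509).

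**Figure D5:**
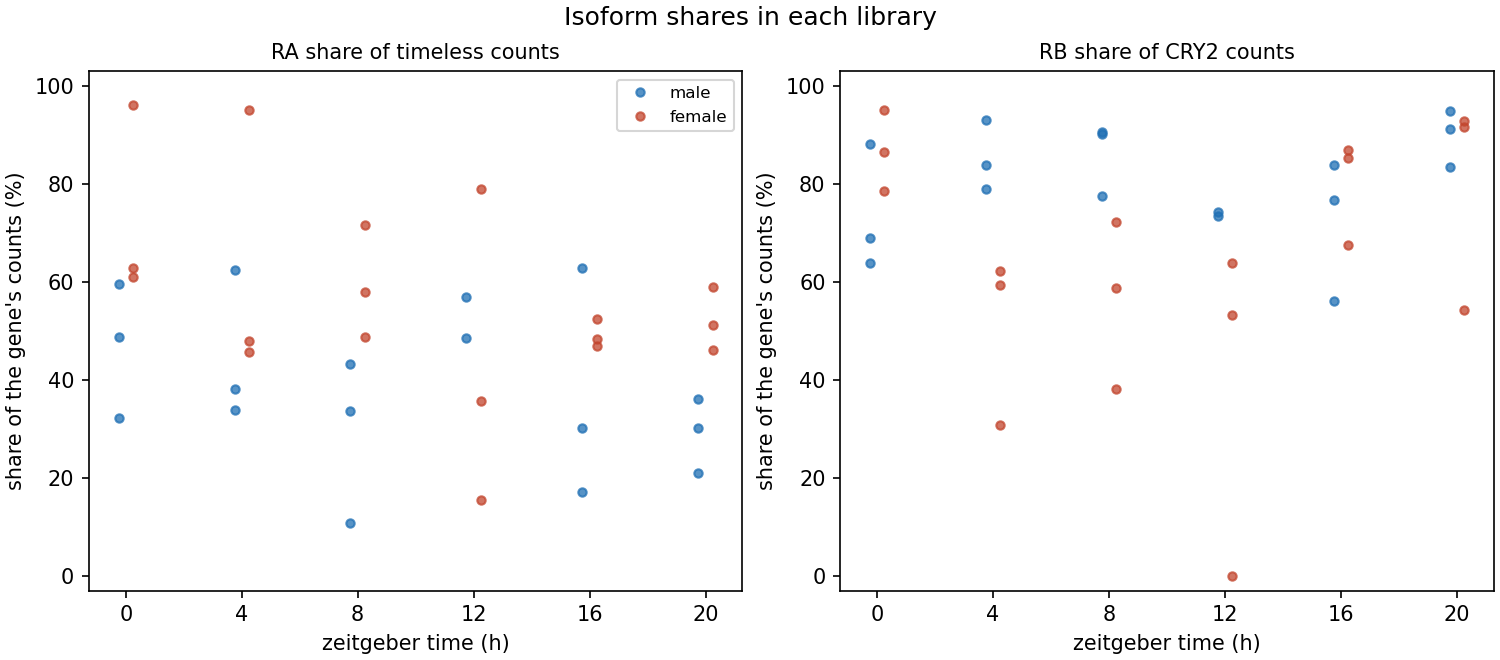
Share of a gene's counts taken by timeless AGAP008288-RA (left) and CRY2 AGAP004261-RB (right), in percent (vertical axes), against zeitgeber time in hours (horizontal axes), with a point per library, males in blue and females in red. Female shares of AGAP008288-RA ran from 15.6 to 96.1% and male ones from 10.9 to 62.9%, with overlap.

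Other transcripts were ranked by how closely their means over the 12 groups, as log2(normalised count + 1), followed those of period and cycle, among 12419 transcripts. The closest to period were AGAP007137-RA (Pearson r = 0.954) and AGAP001854-RA (0.939), and the closest to cycle were AGAP012873-RA (0.960) and AGAP007612-RA (0.897). Between the members, r with period was 0.82 for timeless AGAP008288-RB and 0.40 for AGAP008288-RA, 0.76 for CRY2 AGAP004261-RB, 0.77 for AGAP004261-RC and 0.15 for AGAP004261-RA, 0.29 for CRY1, -0.52 for cycle and -0.60 for Clock, while cycle and Clock had an r of 0.72. These are descriptions across group means from shared libraries. The groups of both sexes enter each r, so it holds the difference between the sexes as well as the time course. AGAP008288-RA, for example, was higher in females and period in males.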

How the data were processed

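The authors quantified the reads with Kallisto against the annotated transcripts of VectorBase, and deposited estimated counts per transcript without normalization. Kallisto's options are not given in the sources used here. Libraries were made from PCR-amplified full-length cDNA without molecular identifiers, so counts are not independent molecules. Counts were rounded to whole numbers and fitted with edgeR 4.0.16 (filterByExpr, TMM, quasi-likelihood F-test, Benjamini-Hochberg, threshold 0.05) in R 4.3.3. The SE of a log2 fold change is its size divided by the square root of F. DESeq2 1.42.0 gave size factors and alternative tests. JTK_CYCLE was re-implemented with an exact null distribution (periods from 8 to 24 h, 4 h apart), and isoform shares used 100000 permutations. The scripts were tested on simulated data. The study discarded a male ZT12 library as being of low quality, and the member rule names replicate 3. No 2 libraries of a group were copies (chi-square per degree of freedom at least 42.3, transcripts with 50 counts or more over the pair).

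Named were all transcripts of the 6 genes and the 2 transcripts most like period and cycle. The members, lists and tests were chosen with earlier results of these data known. The study repeated its collection 3 times. Alternatives were the scaling, the filter, the tool, the replicates, summed isoforms, the opsin covariate and all 36 libraries. Fits that sum isoforms together with another choice were chosen after seeing the data. Of the gene identifiers, 0 matched the RefSeq table.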

Additional observations from a re-analysis of the deposited data

Results flagged for a closer look

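Male ZT12 replicate 3, the library left out of the report's comparisons and used only in the fits with all 36 libraries, held a high level of period. It had 7435 estimated counts of period (AGAP001856-RA), which scaled over all 36 libraries was 22480 normalised counts, against 574.7 to 3353 in the other male libraries. It also had 4 estimated counts of cycle, or 12.1 normalised counts against 401.3 to 3020, and a CRY1 level of 538.2 against 2116 to 2842. It had 8344 transcripts with at least 10 counts, where the other libraries had 11058 to 11762. The study gave low quality as its reason for discarding a male ZT12 library. Mechanosensory genes known to be high in the JO of insects were very low in it. The values are those of a single library, and their source was not tested.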

How the results depend on the processing

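DESeq2's size factors and leaving out the low-count filter gave the same counts of clock transcripts called for time, the 24 h curve and sex. The replicate block, a term for the replicate number, called 5 clock transcripts for time in males and 3 in females (5 and 2 without it), 5 for the 24 h curve in each sex (6 and 5 without it), and 6 for sex as without it. It added AGAP008288-RA for time in females (adjusted p = 0.0174, edgeR) and lost AGAP004261-RC for the curve in males (0.0504). The labels do not state that a number marks the same repeat of the collection. Serial numbers in the library names, however, run through all groups of replicate 1, then 2, then 3. Same-numbered libraries of other groups had deviations from their group means that correlated at 0.041 on average (-0.373 to 0.393), against -0.02 for other numbers. Of the 35 libraries, 24 correlated best with their own number. The numbers were not taken as pairs. Apart from the block fits, no fit or permutation test held the replicate number fixed, so a shared repeat was not accounted for there. Leaving out each replicate number in turn gave 2 to 3 transcripts called for time in males and 1 to 3 in females, 3 to 3 for the 24 h curve in males and 2 to 5 in females, 1 to 3 by JTK_CYCLE in males and 0 to 2 in females, and 0 to 2 isoform shares. Summed genes called for the 24 h curve in males numbered 3 to 4 in the same fits. These fits hold fewer samples, and over all transcripts the calls for time fell from 206 to between 11 and 41 in males and from 151 to between 10 and 20 in females. With all 36 libraries 1 transcript each was called in males for time, the 24 h curve and by JTK_CYCLE. Over all transcripts these calls fell from 206, 287 and 163 to 126, 33 and 57. Summed genes called were 2 for time and 2 for the curve in males, and 3 for sex. Over all genes these went from 237, 322 and 7663 to 234, 79 and 6036. Period then had an adjusted p of 0.0643 and cycle of 0.137 for time in males (edgeR). In females summed isoforms gave 4 genes and DESeq2's likelihood ratio test 6 transcripts for time, and that test as a first step gave 4 for JTK_CYCLE. Over all female features these gave 199 of 10588 genes, 650 of 12546 transcripts (151 of 12322 by edgeR) and 444 for JTK_CYCLE (140 after edgeR). DESeq2's Wald test for sex, with the median of all transcripts at -0.133, called 6, and 8890 of all 13729. The opsin covariate left 3 summed genes called for sex, and 3202 of all 10899. Log2 ratios in place of shares left 2 isoforms. Signs turned for values that passed in neither fit, namely Clock for sex with the opsin covariate (-0.31, summed fit -0.39), AGAP004261-RA for sex without replicate 3 (without each replicate number, -1.96 to 0.39), AGAP008288-RB without replicate 1 (-0.21 to 0.40), and the share of AGAP004261-RC without replicate 1 (-3.23 to 1.15 points). The cause of these changes was not tested. Low counts (under 10) limit AGAP004261-RA in both sexes and AGAP004261-RB in 1 female library.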
